A study of Mus musculus with 16 samples.

Results

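The 10 genes described here encode the proteins that set the pace of the G1 phase of the cell cycle. They are the D-type cyclin genes Ccnd1, Ccnd2 and Ccnd3, the genes of their kinase partners Cdk4 and Cdk6, the E-type cyclin genes Ccne1 and Ccne2, and the CDK inhibitor genes Cdkn1a, Cdkn1b and Cdkn2c. They were chosen by name, and each was found by its Ensembl identifier, so they made up 10 of the 52636 gene identifiers in the count table. All 10 had enough counts to be tested, among 12215 tested genes. RNA was sequenced from mouse embryonic stem cells of the line CRAFR26, which carries a construct of the kinase cRAF that 4-hydroxytamoxifen switches on, so that the drug activates ERK signalling.

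The cells were grown without feeder cells, on gelatine in N2B27 medium with LIF (1000 U/ml), the GSK3 inhibitor Chir (3 µM) and, routinely, the MEK inhibitor PD03 (1 µM). In all groups PD03 had been exchanged for the FGF receptor inhibitor PD17 (250 nM) for 48 h. Cells of the 0h group received no 4-hydroxytamoxifen, those of the 2h and 4h groups received 250 nM for 2 h or 4 h, and those of the rev group received it for 4 h followed by a MEK inhibitor for 2 h. Each group held 4 libraries, 2 replicates from clone 4 and 2 from clone 8, and each clone is 1 line. Nothing states that the replicates were separate cultures, so p-values measure the spread between these libraries, which may be technical. No vehicle control and no culture of the same age as rev without the MEK inhibitor was among the samples, so the effects of the inhibitor and of the further 2 h cannot be told apart.

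D-type cyclins bind CDK4 or CDK6, and these complexes phosphorylate the RB protein, which then releases E2F transcription factors. E2F factors switch on genes of S phase, cyclin E among them, and cyclin E with CDK2 completes the phosphorylation of RB. The inhibitors p21 (encoded by Cdkn1a) and p27 (Cdkn1b) bind cyclin-CDK complexes, while p18 (Cdkn2c) binds CDK4 and CDK6 alone. Mouse embryonic stem cells are known for a short G1 phase, and in many other cell types ERK signalling raises cyclin D1.

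Total counts per library ranged from 2172651 to 12680303, and 3 counts corresponded to between 0.213 and 1.35 CPM (counts relative to the size of the library, scaled here with edgeR's TMM factors). The 8 most abundant gene models took 58.6% to 63.4% of a library's counts at 0h, 53.1% to 62.9% at 2h, 42% to 62.4% at 4h and 55.1% to 80.4% in rev. They were CT010467.1, Gm26917, Lars2, Mir6236, Gm23935, Gm15564 and the mitochondrial ribosomal RNA genes mt-Rnr1 and mt-Rnr2. The origin of their reads was not tested. The library rev clone 8 replicate 2 held the highest share and stood apart with the lowest TMM factor, 0.463. Without it the counts of the 10 genes called in rev stayed at 1 higher and 4 lower against 4h, and at 3 higher and 1 lower against 0h. Of the 12562 genes tested without it, 919 were higher and 1021 lower against 4h, and 1283 and 1097 against 0h. All 12 genes of a list of ERK response genes rose at 4h and all 12 fell from 4h to rev. All 10 embryonic stem cell markers were detected, with a summed level of 1776 to 2478 CPM over the 16 libraries, and at 4h against 0h 6 of them rose and 3 fell. Of the other lineages' markers, 7 of 8 primitive endoderm genes (summed level 3.53 to 7.66 CPM), 6 of 8 fibroblast genes (2.44 to 8.56 CPM, with Dcn and Postn at 0) and 2 of 7 trophoblast genes had means under 1 CPM. The summed trophoblast level was 40.5 to 53.4 CPM at 0h and 35.0 to 47.7 CPM at 4h, while 3 of its 5 tested genes rose and 1 fell. The part of these markers in the results was not tested.

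At 4h against 0h, Ccnd2 rose 18.8-fold, Cdk6 rose 2.57-fold, and Ccne1 and Ccne2 rose 1.32-fold and 1.31-fold, while Cdkn1b fell by 43.8% and Cdkn1a fell by 17.8%. The calls of Ccne2 and Cdkn1a depended on the processing and on single libraries, as given below. Ccnd1, Ccnd3, Cdk4 and Cdkn2c were not called. In counts, 3 genes were higher and 2 lower at 2h than at 0h, against 11.4% and 9.68% of all tested genes. At 4h against 0h, 4 were higher and 2 lower, against 17.2% and 16.8% of all tested genes. At 4h against 2h, 3 were higher, against 3.8% of tested genes, and 0 were lower, against 3.52%, with 1 lower at an unadjusted p under 0.05 in edgeR. DESeq2 also called 0 lower there at an adjusted p under 0.05. At rev against 4h, 1 was higher and 4 were lower, against 7.93% and 8.43%, and at rev against 0h 3 were higher and 1 lower, against 12.4% and 9.86%. A call is an adjusted p under 0.05 in edgeR's quasi-likelihood test with the clone as a covariate and Benjamini-Hochberg adjustment over all 12215 genes. The median log2 fold change of the 10 genes was 0.06 at 2h against 0h, 0.19 at 4h against 0h, 0.02 at 4h against 2h, -0.07 at rev against 4h and 0.06 at rev against 0h. Over all tested genes these medians lay between -0.02 and 0.01. In these bulk libraries, fewer cells that express a gene and less of its RNA per cell cannot be told apart.

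**Figure D1:**
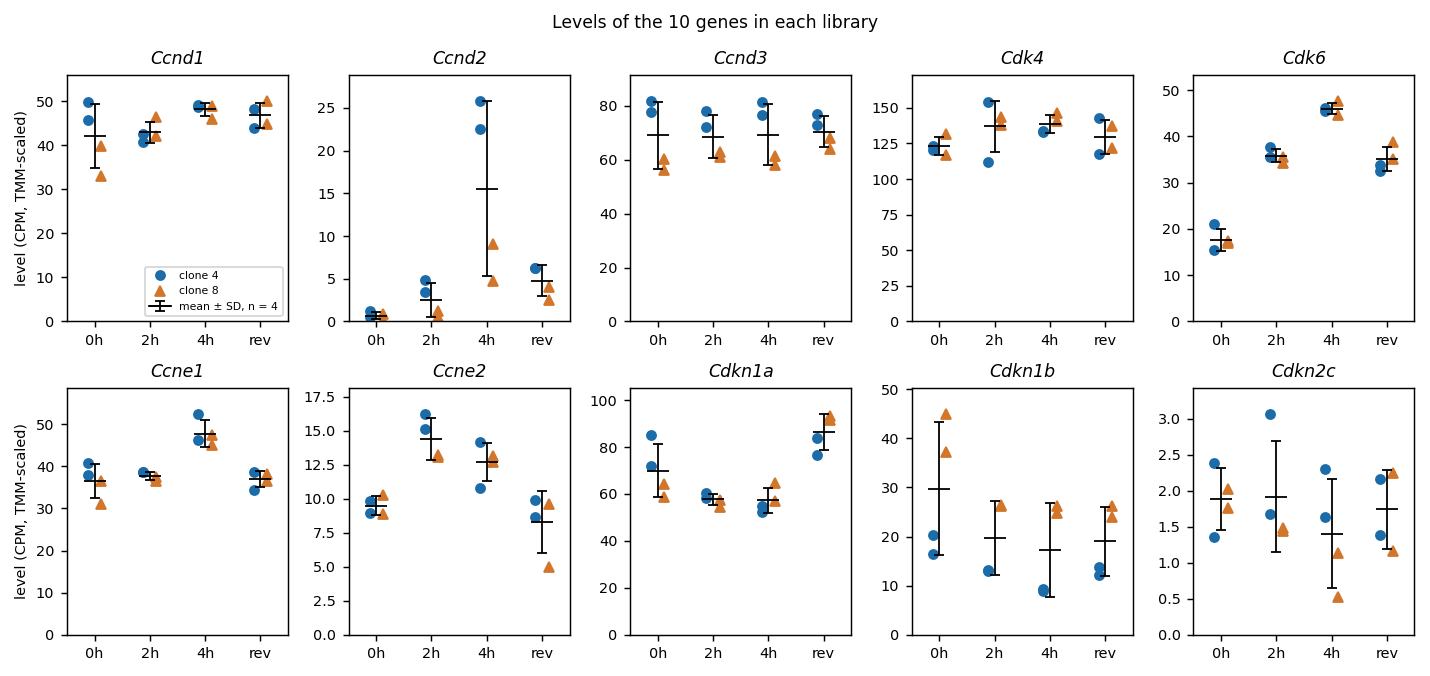
Level of each of the 10 genes (CPM, TMM-scaled, from 0) in each library of the 4 groups, with circles for clone 4, triangles for clone 8 and black bars for the mean ± SD of 4 libraries. Cdk6 rose from 15.5 to 21 CPM at 0h to 44.7 to 47.7 CPM at 4h in both clones, whereas Ccnd2 reached 22.5 and 25.8 CPM in clone 4 and 9.11 and 4.74 CPM in clone 8.

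Values below are in the order clone 4 replicate 1, clone 4 replicate 2, clone 8 replicate 1 and clone 8 replicate 2. Ccnd2 (ENSMUSG00000000184; GRCm38 chr6:127125162-127152193, minus strand), which encodes cyclin D2, was nearly silent before induction, with 0.543, 1.19, 0.161 and 0.855 CPM at 0h. These came from 2, 8, 1 and 8 counts, so a fold change against 0h rests on 19 counts in all. At 2h its level was 3.5, 4.82, 1.27 and 0.568 CPM. Both clone 4 libraries at 2h lay above all 0h libraries, while 1 of the 2 clone 8 libraries lay within their range. At 4h its level was 22.5, 25.8, 9.11 and 4.74 CPM, and in rev 6.29, 6.30, 2.49 and 4.06 CPM. Every 4h library lay above every 0h library, and every rev library lay below both 4h libraries of its own clone and above all 0h libraries. Its log2 fold change was 1.41 (SE 0.41, adjusted p = 0.0125) at 2h and 4.23 (SE 0.28, adjusted p = 3.7e-14) at 4h, both against 0h and with edgeR. Of the 12215 tested genes, 18 had a larger log2 fold change at 4h against 0h, and 0 had a larger one at 4h against 2h, where that of Ccnd2 was 2.82 (SE 0.22, adjusted p = 1.4e-10). From 4h to rev it fell by 1.79 on the log2 scale (SE 0.20, adjusted p = 3.0e-08) and it stayed 2.44 (SE 0.36, adjusted p = 7.6e-06) above 0h. The rise at 2h was not called without the clone covariate (log2 fold change 1.34, adjusted p = 0.339) or without the library 0h clone 4 replicate 2 (1.37, adjusted p = 0.0527).

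Ccnd1 (ENSMUSG00000070348; chr7:144929931-144939925, minus strand), which encodes cyclin D1, was at 49.7, 45.8, 33.0 and 39.8 CPM at 0h and at 48.6, 49.2, 46.0 and 48.9 CPM at 4h. The 2 clone 8 libraries at 0h were the lowest of the 16, and the groups overlapped. At 2h it ranged from 40.8 to 46.3 CPM and in rev from 43.9 to 50.03 CPM. At 4h against 0h the log2 fold change was 0.21 (SE 0.09, 95% interval 0.03 to 0.39), with an adjusted p of 0.0687 in edgeR. It was called with the share of the 8 most abundant models as a covariate (0.25, adjusted p = 0.0447) and without the library 0h clone 4 replicate 1 (0.28, adjusted p = 0.0179). Within clone 8 alone it was 0.37 (SE 0.12, adjusted p = 0.0208) and within clone 4 it was 0.04 (SE 0.11, adjusted p = 0.822), and the difference between the clones had an adjusted p of 0.428.

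Ccnd3 (ENSMUSG00000034165; chr17:47505051-47599691, plus strand), which encodes cyclin D3, was at 81.7, 77.6, 56.3 and 60.3 CPM at 0h and at 76.6, 81.2, 58.1 and 61.3 CPM at 4h. In each group both clone 4 libraries lay above both clone 8 libraries. The log2 fold change at 4h against 0h was 0.01 (SE 0.07, 95% interval -0.13 to 0.16, adjusted p = 0.898 in edgeR), and none of the 5 comparisons between groups called it. Clone 8 was lower than clone 4 by a log2 difference of -0.34 (SE 0.05, adjusted p = 4.4e-06).

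Levels were divided by the length of all annotated exons of a gene, merged over its transcripts, which can exceed that of the RNA expressed. Comparisons between genes are therefore approximate. On this scale Ccnd1 and Ccnd3 made up nearly all of the D-type cyclin RNA in every group. Cyclin D2 contributed 0.421% ± 0.257 (SD, n = 4) of the summed level per kilobase at 0h and 1.54% ± 1.15 at 2h. It contributed 7.95% ± 4.50 at 4h, and 2.72% ± 0.97 after the inhibitor. At 4h its share was 11.2% and 12.2% in the 2 clone 4 libraries and 5.58% and 2.81% in the 2 clone 8 libraries. Each 4h library exceeded the 0h libraries, whose highest share was 0.679%. The share of Ccnd1 was 53% ± 1.29 at 0h and 52.3% ± 5.77 at 4h, and that of Ccnd3 was 46.6% ± 1.40 and 39.8% ± 1.42. The summed level was 16.9 ± 2.98 CPM per kilobase at 0h and 19.8 ± 2.54 at 4h. These ranges overlapped over both clones, but within each clone both 4h libraries lay above both 0h libraries, at 21.4 and 22.4 against 19.9 and 18.7 in clone 4 and at 17.3 and 17.9 against 13.4 and 15.4 in clone 8. Without division by length, Ccnd3 came first at 0h with 61.7% and Ccnd1 followed with 37.7%, so their order depended on the division.

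**Figure D2:**
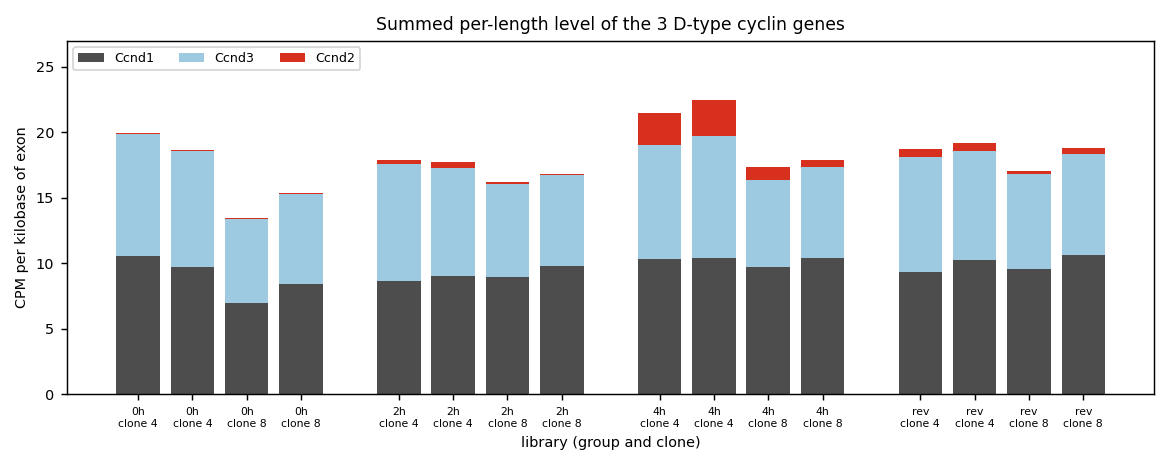
Summed level of Ccnd1, Ccnd3 and Ccnd2 in each library, in CPM per kilobase of exon from 0, with 1 bar per library and the libraries set in order of group and clone. The Ccnd2 segment was 0.127% to 0.679% of the bar at 0h and 2.81% to 12.2% at 4h.

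Cdk6 (ENSMUSG00000040274; chr5:3341485-3531008, plus strand), the kinase that pairs with D-type cyclins, rose in both clones. Its level was 15.5, 21, 16.9 and 17.3 CPM at 0h and 35.6, 37.7, 34.3 and 35.6 CPM at 2h. At 4h it was 45.5, 46.1, 47.7 and 44.7 CPM, and in rev 32.6, 33.9, 35.1 and 38.8 CPM. The 0h, 2h and 4h groups did not overlap, and the rev libraries lay below all 4h libraries and above all 0h libraries. The log2 fold change against 0h was 0.99 (SE 0.09, adjusted p = 2.7e-10) at 2h and 1.36 (SE 0.09, adjusted p = 3.2e-14) at 4h with edgeR. The level then fell by 0.42 in rev on the log2 scale (SE 0.08, adjusted p = 6.0e-04), and rev stayed 0.95 above 0h (SE 0.10, adjusted p = 6.2e-09). With library size alone the call at rev against 0h was lost (0.64, adjusted p = 0.0717), as was that at 4h against 2h (0.47, adjusted p = 0.887). At 4h against 0h it was 1.28 within clone 4 and 1.43 within clone 8, and the difference between the clones was 0.15 (95% interval -0.21 to 0.52).

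Cdk4 (ENSMUSG00000006728; chr10:127063534-127067920, plus strand), the other D-type cyclin kinase, was at 120, 124, 132 and 117 CPM at 0h and at 133, 134, 146 and 141 CPM at 4h. All 4h libraries lay above all 0h libraries, but the change of 0.17 on the log2 scale (SE 0.08, 95% interval 0.00 to 0.33) had an adjusted p of 0.104 in edgeR. At 2h it ranged from 112 to 154 CPM and in rev from 118 to 143 CPM. Per kilobase, Cdk4 was the highest of the 10 genes in each group, at 37.9 ± 1.97 (0h) to 42.6 ± 1.95 (4h) CPM per kilobase (SD, n = 4). Cdk6 made up 3.23% ± 0.432 of the summed Cdk4 and Cdk6 level per kilobase at 0h and 5.79% ± 0.737 at 2h. This share was 7.17% ± 0.270 at 4h, and 5.95% ± 0.713 in rev. Its share in each 4h library, 6.86% to 7.43%, exceeded that in each 0h library, 2.89% to 3.80%. Without division by length the Cdk6 share went from 12.6% (0h) through 20.9% (2h) to 25.0% (4h), and rev held 21.4%.

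Ccne1 (ENSMUSG00000002068; chr7:38097984-38107534, minus strand), which encodes cyclin E1, was at 40.7, 38, 36.5 and 31.1 CPM at 0h and at 38.6, 38.5, 36.6 and 37.5 CPM at 2h. At 4h it was 52.4, 46.1, 47.5 and 45.0 CPM, and in rev 34.4, 38.7, 38.3 and 36.5 CPM. The 4 libraries at 4h lay above the other 12. Ccne1 had a log2 fold change of 0.07 at 2h against 0h (SE 0.08, adjusted p = 0.608), 0.34 at 4h against 2h (SE 0.08, adjusted p = 0.00661) and 0.40 at 4h against 0h (SE 0.08, adjusted p = 2.4e-04) with edgeR. The rise from 2h to 4h was not called with no low-count filter (0.31, adjusted p = 0.0631), and with library size alone neither that rise (0.45, adjusted p = 0.925) nor the one from 0h (0.51, adjusted p = 0.200) was called. In rev it fell back by 0.38 on the log2 scale (SE 0.08, adjusted p = 0.00135). At rev against 0h the difference was 0.02 (95% interval -0.16 to 0.20).

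Ccne2 (ENSMUSG00000028212; chr4:11191351-11204779, plus strand), which encodes cyclin E2, was at 8.96, 9.85, 10.3 and 8.87 CPM at 0h and at 15.1, 16.2, 13.2 and 13.1 CPM at 2h. At 4h it was 10.8, 14.1, 12.7 and 13.2 CPM, and in rev 9.91, 8.69, 9.61 and 4.96 CPM. The 0h libraries lay below those of 2h and 4h, and the lowest value of all came from 11 counts in rev clone 8 replicate 2. The log2 fold change was 0.56 at 2h (SE 0.13, adjusted p = 0.00238) and 0.39 at 4h (SE 0.14, adjusted p = 0.0293), both against 0h, and -0.17 at 4h against 2h (SE 0.13, adjusted p = 0.502 in edgeR). With library size alone the 2h rise was not called (0.57, adjusted p = 0.304). From 4h to rev it fell by 0.50 on the log2 scale (SE 0.15, adjusted p = 0.0167), and without rev clone 8 replicate 2 by 0.41 (adjusted p = 0.0393). Without the library 4h clone 4 replicate 2 that fall had an adjusted p of 0.0669, and with the share of the 8 most abundant models as a covariate it was 0.51 (adjusted p = 0.0566). The rise at 4h was not called when any of 6 libraries was left out in turn, with adjusted p from 0.0613 to 0.105. These were 0h clone 4 replicates 1 and 2, 0h clone 8 replicate 2, 4h clone 4 replicate 2 and both clone 8 libraries of 4h. It was also not called without the clone covariate (adjusted p = 0.0515), with no low-count filter (0.0590), with library size alone (0.264) or with the 8 most abundant models removed and library size alone (0.109). Per kilobase, Ccne2 made up 16.6% ± 1.61 of E-type cyclin RNA at 0h and 22.4% ± 1.48 at 2h. Its share was 16.9% ± 2.38 at 4h, and 14.5% ± 3.69 in rev.

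Of the 3 inhibitor genes, 2 were called lower at 4h against 0h, where 16.8% of all tested genes were. The change of 1 of these, Cdkn1a, was -0.54 on the log2 scale within clone 4 and -0.02 within clone 8. Cdkn1b (ENSMUSG00000003031; chr6:134920401-134925513, plus strand), which encodes p27, was at 20.4, 16.4, 37.3 and 44.9 CPM at 0h and at 13.1, 13.1, 26.4 and 26.3 CPM at 2h. At 4h it was 9.24, 8.88, 26.2 and 24.7 CPM, and in rev 13.8, 12.2, 26.2 and 23.9 CPM. Clone 8 lay above clone 4 in each group, so the groups overlapped, but within each clone all 0h libraries lay above those of 2h, 4h and rev. The log2 fold change against 0h was -0.60 at 2h (SE 0.10, adjusted p = 4.6e-05), -0.83 at 4h (SE 0.11, adjusted p = 2.6e-07) and -0.59 in rev (SE 0.11, adjusted p = 1.9e-04) with edgeR. Without the clone as a covariate these 3 changes were not called, at -0.54 (adjusted p = 0.386), -0.90 (0.0945) and -0.72 (0.241), and with library size alone the 2h change was not called (-0.58, adjusted p = 0.248). From 4h to rev the change was 0.24 (SE 0.12, adjusted p = 0.170). It was 0.54 within clone 4 (SE 0.16, adjusted p = 0.0293) and -0.01 within clone 8 (SE 0.15, adjusted p = 0.999), and the difference between the clones, -0.54, had an adjusted p of 0.808. Clone 8 was higher than clone 4 by 1.16 on the log2 scale (SE 0.08, adjusted p = 1.6e-13).

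Cdkn1a (ENSMUSG00000023067; chr17:29090976-29100727, plus strand), which encodes p21, was at 85.0, 71.8, 64.2 and 58.8 CPM at 0h and at 60.6, 58.2, 54.5 and 57.4 CPM at 2h. At 4h it was 52.1, 55, 57.2 and 64.7 CPM, and in rev 76.5, 83.8, 91.5 and 93.3 CPM. The rev libraries lay above all 4h libraries, whereas 0h and 4h overlapped. The rise from 4h to rev was 0.59 on the log2 scale (SE 0.09, adjusted p = 1.9e-05 in edgeR), with 0.57 within clone 4 and 0.60 within clone 8. Scaled by library size alone this rise was 0.15 (adjusted p = 0.629), where the median of all tested genes was -0.41. Rev was above 0h by 0.31 (SE 0.09, adjusted p = 0.0137), but scaled by library size alone the change was -0.02, where the median of all tested genes was -0.32. That call was lost without the library 0h clone 8 replicate 2 (0.22, adjusted p = 0.0925) and without rev clone 8 replicate 1 (0.26, adjusted p = 0.0714). It was also lost without the clone covariate (0.31, adjusted p = 0.0607) and with the 8 most abundant models removed and library size alone (0.21, adjusted p = 0.0772).

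The falls of Cdkn1a during induction were smaller, at -0.26 at 2h (SE 0.09, adjusted p = 0.0401) and -0.28 at 4h (SE 0.09, adjusted p = 0.0174), both against 0h. The 2h call was lost when any of 6 libraries was left out in turn, namely the 4 of 2h and both clone 4 libraries of 0h, with log2 fold changes from -0.29 to -0.17. It was also lost with the share of abundant models as a covariate (adjusted p = 0.0583), no low-count filter (0.115), no clone covariate (0.111), the replicate block (0.0506), DESeq2 (0.0642) and library size alone (0.834). The 4h call was lost without either clone 4 library of 0h or of 4h, and without 0h clone 4 replicate 1 the change was -0.18 (adjusted p = 0.106). It was also lost with the share of abundant models as a covariate (adjusted p = 0.140), no clone covariate (0.0547) and library size alone (0.739). At 4h it was -0.54 within clone 4 (SE 0.10, adjusted p = 2.1e-04) and -0.02 within clone 8 (SE 0.11, adjusted p = 0.942). The difference between the clones, 0.52, had an unadjusted p of 0.00135 in edgeR and an adjusted p of 0.110.

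Cdkn2c (ENSMUSG00000028551; chr4:109660876-109667189, minus strand), which encodes p18, was close to the detection limit. It was at 1.36, 2.39, 1.77 and 2.03 CPM at 0h and at 2.31, 1.64, 1.14 and 0.526 CPM at 4h, from 51 and 43 counts in all. The groups overlapped, and the log2 fold change of -0.40 (SE 0.32, 95% interval -1.05 to 0.24) had an adjusted p of 0.345 in edgeR. None of the 5 comparisons between groups called it.

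**Figure D3:**
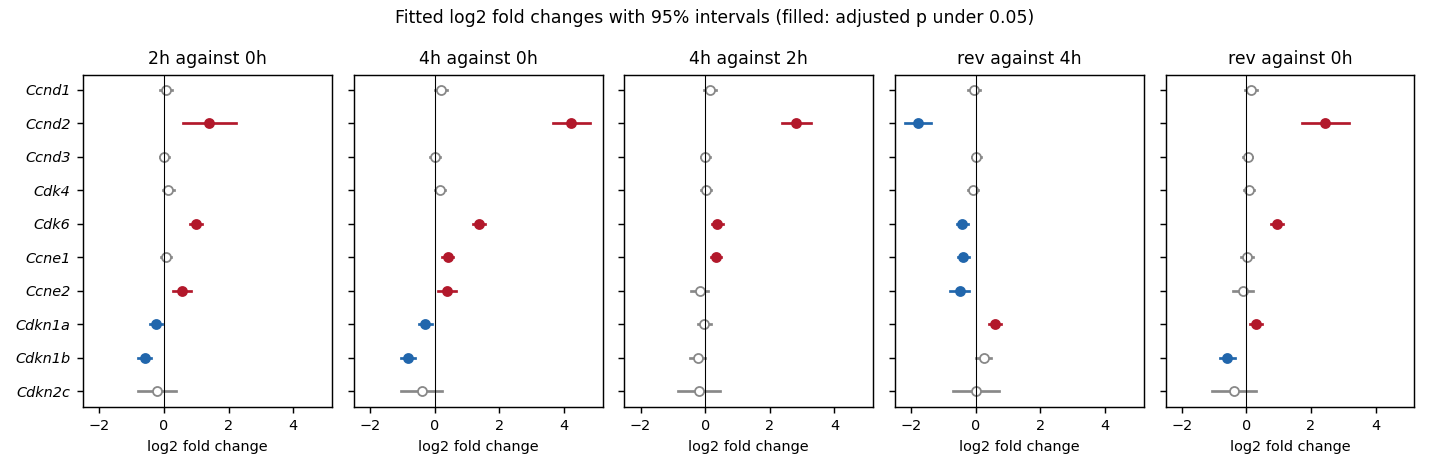
Fitted log2 fold change of each gene in the 5 comparisons, with 95% intervals and a vertical line at 0. Filled points had an adjusted p under 0.05 (red higher, blue lower) and open grey points did not, and the point of Ccnd2 at 4h against 0h (4.23) lies farthest from 0.

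How far rev returned toward 0h is given for the genes called at 4h. The change from 4h to rev, taken as a multiple of the change from 0h to 4h with the sign turned, was 0.42 for Ccnd2, with 0.10 to 0.48 over the 4 sets of libraries of the same clone and number. For Cdk6 it was 0.30 (0.15 to 0.39), for Ccne1 0.95 (0.57 to 1.67), for Ccne2 1.26 (0.45 to 2.45) and for Cdkn1b 0.29 (-0.06 to 0.51). For Cdkn1a this multiple ran from -3.81 to 4.07 over the 4 sets, so no single value is given for it. In Cdkn1b both clone 8 sets were below 0, and its change from 4h to rev was itself not called. Each single value came from edgeR's fitted changes, and each range from log2 CPM with a prior count of 2. A value and its range are thus on different scales, which matters most for Ccnd2 with its few counts at 0h. Both changes share the 4h libraries, and the numbers were not taken as pairs, so these values are descriptions without a test. Of the 12 ERK response genes, 6 were higher and 2 lower in rev than at 0h, with a list median of 0.29 on the log2 scale, where 12.4% and 9.86% of all tested genes were called and their median was -0.01. Spry4, which encodes an inhibitor of the pathway, was at 0.998 ± 0.557 CPM at 0h, 245 ± 32.3 CPM at 4h and 3.12 ± 1.20 CPM in rev. Dusp6, which encodes a phosphatase of ERK, was at 1.25 ± 0.448, 55.2 ± 10.7 and 1.59 ± 0.667 CPM. The transcription factor gene Myc rose by 4.88 on the log2 scale at 4h, and Egr1 fell by 4.70 from 4h to rev.

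Between the clones, 1 of the 10 genes was higher in clone 8 and 2 were lower, against 15.4% and 13.7% of all tested genes. These were Cdkn1b, and Ccnd2 and Ccnd3. Ccnd2 was 3.05-fold lower in clone 8 (log2 difference -1.61, SE 0.18, adjusted p = 1.2e-08 in edgeR), with means at 4h of 24.2 CPM in clone 4 and 6.93 CPM in clone 8. In response to induction, its log2 fold change at 4h was 4.63 within clone 4 (SE 0.34) and 3.61 within clone 8 (SE 0.46). The difference, -1.02 (95% interval -2.65 to 0.61), had an adjusted p of 0.669. None of the 10 genes was called for a difference in response between the clones at 2h against 0h, 4h against 0h or rev against 4h, where edgeR called 0.0901%, 0.311% and 0.00819% of all tested genes. At an unadjusted p under 0.05 there were 1, 2 and 1 of the 10, namely Ccnd1 at 2h, Ccnd1 and Cdkn1a at 4h, and Cdkn1b in rev. Over all tested genes the unadjusted counts were 1228, 1417 and 737.

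The order of the genes by level per kilobase of merged exons is approximate. At 0h it ran from Cdk4 through Cdkn1a, Ccne1, Ccnd1, Ccnd3, Cdkn1b, Ccne2, Cdk6 and Cdkn2c to Ccnd2. In that order the libraries of Ccnd1 and Ccnd3 overlapped, as did those of Ccnd3 and Cdkn1b, and the other neighbours did not. At 4h Ccne1 stood above Cdkn1a (17.9 ± 1.22 and 16.1 ± 1.52 CPM per kilobase, with overlapping libraries), and Ccnd2 stood above Cdkn2c (1.65 ± 1.09 and 0.522 ± 0.281, also overlapping). In rev Cdkn1a again stood above Ccne1, at 24.3 ± 2.16 and 13.9 ± 0.727 CPM per kilobase, without overlap.

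Some exons of these genes lie opposite exons of another gene, and the strand setting of the counting is not given in the sources used here, so reads there cannot be assigned. Ccnd3 shares 361 bases with Bysl, which rose at 4h from 34.1 ± 5.29 to 48.6 ± 1.38 CPM, and Cdk4 shares 641 bases with Tspan31, which fell from 16.7 ± 2.20 CPM at 4h to 11.3 ± 1.53 CPM in rev. Ccnd1 shares 1100 bases with LTO1, which fell at 4h from 5.28 ± 0.657 to 3.42 ± 0.914 CPM, and Ccne2 shares 609 with Ints8, which was at 42.2 ± 4.30 CPM at 0h and 48.5 ± 2.14 CPM at 4h (adjusted p = 0.0578 in edgeR). The 2 genes opposite Ccnd2 had 0 counts in all libraries, and Gm17590 opposite Cdk6 had at most 5. Cdkn1a shares 273 bases with AC167363.2, which was not analysed here. Ccne1, Cdkn1b and Cdkn2c shared no exon base with another gene.

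The promoters of the 4 genes below are shown because 3 of them moved at 4h (Cdk6 and Ccne1 up, Cdkn1b down) while Cdk4, the other D-type cyclin kinase, was not called. The 250 bases before the RefSeq start site (build GRCm38.p6) are given on each gene's own strand, and capitals mark the E-box CACGTG and the GC box GGGCGG or its reverse complement. They lie at chr5:3343643-3343892, plus strand, at chr10:127063285-127063534, plus strand, at chr7:38107491-38107740, minus strand, and at chr6:134920151-134920400, plus strand.
Cdk6: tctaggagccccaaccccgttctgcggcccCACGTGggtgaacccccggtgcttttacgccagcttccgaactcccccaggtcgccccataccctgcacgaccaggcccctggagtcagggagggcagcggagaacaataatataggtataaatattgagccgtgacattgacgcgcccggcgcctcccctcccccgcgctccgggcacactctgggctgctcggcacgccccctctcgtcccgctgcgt
Cdk4: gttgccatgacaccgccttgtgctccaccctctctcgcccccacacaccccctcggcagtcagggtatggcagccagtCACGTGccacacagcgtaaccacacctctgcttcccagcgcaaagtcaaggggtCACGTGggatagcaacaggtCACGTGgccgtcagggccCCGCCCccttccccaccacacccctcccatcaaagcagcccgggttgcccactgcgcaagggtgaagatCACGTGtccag
Ccne1: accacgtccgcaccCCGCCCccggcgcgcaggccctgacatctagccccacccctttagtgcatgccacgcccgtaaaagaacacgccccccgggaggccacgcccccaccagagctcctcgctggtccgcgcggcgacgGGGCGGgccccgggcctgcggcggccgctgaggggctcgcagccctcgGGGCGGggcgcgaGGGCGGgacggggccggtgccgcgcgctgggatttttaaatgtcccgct
Cdkn1b: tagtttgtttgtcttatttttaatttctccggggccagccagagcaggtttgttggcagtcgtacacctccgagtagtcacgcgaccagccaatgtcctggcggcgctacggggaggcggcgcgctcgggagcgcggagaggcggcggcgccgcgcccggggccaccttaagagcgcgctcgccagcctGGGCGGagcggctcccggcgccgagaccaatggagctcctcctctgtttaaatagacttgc

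RefSeq windows from 250 bases before to 50 after a start site were matched for 7 of the 10 genes, in 10 windows, since 3 genes had 2 start sites. Ccnd1, Ccnd2 and Ccne2 were not matched. The GC box, bound by SP-family factors, was in 7 of the 10 windows and in 35.7% of all 32851 windows. The E-box CACGTG, bound by MYC-family and USF factors, was in 3 of 10 and in 7.15% of all windows. It occurred 4 times in the Cdk4 window, with first bases at -172, -118, -98 and -11 from the start site, and once in that of Cdk6, at -220. None of the 10 windows held the letters TGANTCA (AP-1, in 7.81% of all windows), TGACGTCA (CRE, 1.79%), CCGGAAGT (ETS, 3.89%), TTCNNNGAA (STAT, 8.30%), TTTCGCGC or TTTGGCGC (E2F, 0.323% and 0.514%) or the SRF CArG box (1.63%), searched on both strands. The GC content was 44% to 76% with 2 to 41 CpG sites, and the median over all windows was 52.7% with 7 CpG sites. A match or its absence describes these letters in this window and no binding.

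The rest of the pathway is described from lists chosen with earlier results of these data known. Of 11 other G1/S cyclins, CDKs and inhibitors that were tested, 3 rose at 4h against 0h and 1 fell, where 17.2% of all tested genes were higher and 16.8% lower. Those that rose were Ccnh and Cdk7, which together form the kinase that activates CDKs, and Ccna2, cyclin A2 of S phase, with log2 fold changes of 0.51, 0.48 and 0.25. Ccnh and Cdk7 fell again from 4h to rev, by 0.33 and 0.51 on the log2 scale. Between 4h and rev 2 of the 11 rose and 2 fell, where 7.93% and 8.43% of all tested genes did. Those that rose were Wee1, a kinase that inhibits CDKs (0.30), and Cdc25a, a phosphatase that activates them (0.24). Cdk2, the kinase partner of cyclin E, was at 68.1 ± 4.53 CPM at 0h and 69.0 ± 8.02 CPM at 4h (log2 fold change 0.02, SE 0.07, adjusted p = 0.895 in edgeR).

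Among 13 RB and E2F family genes, 4 rose at 4h and the other 9 were not called, against 17.2% higher and 16.8% lower over all tested genes. E2f4, which encodes an E2F factor of the repressor class, rose from 55.7 ± 5.73 to 96.4 ± 13.6 CPM (log2 fold change 0.79, SE 0.08, adjusted p = 1.3e-09 in edgeR), and E2f2 and E2f8 rose by 0.51 each. E2f4 was the 1 gene of the list that fell from 4h to rev, by 0.23, and 0 rose, with 6 of the 13 fold changes above 0, where 7.93% of all tested genes were higher and 8.43% lower. Of 25 E2F target genes of S phase, 9 rose and 1 fell at 4h against 0h, where 17.2% of all tested genes were higher and 16.8% lower. The list median there was 0.09 on the log2 scale, and the median of all tested genes was -0.02. Ung and Pcna, which act in DNA repair and DNA replication, rose by 0.38 and 0.36, and the thymidine kinase gene Tk1 fell by 0.52. In rev against 4h, Tk1 rose by 0.32 and Pcna fell by 0.32, and the other 23 were not called, against the same shares for rev. Of 20 G2/M genes, 2 rose and 3 fell at 4h, against 17.2% and 16.8% of all tested genes. Those of at least 5 CPM with the same sign in all same-numbered differences included Ube2c (0.27) among the higher, and Cdc25b (-0.48), Cenpf (-0.44) and Birc5 (-0.25) among the lower. From 4h to rev 2 of the 20 rose and 3 fell, against 7.93% and 8.43% of all tested genes, namely Birc5 (0.29) and Cenpf (0.26) up, and the mitotic cyclin genes Ccnb2 (-0.33) and Ccnb1 (-0.25) and the checkpoint kinase gene Bub1 (-0.29) down.

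The machinery that degrades cyclins D and E and p27 had 10 tested genes, of which 3 rose and 3 fell at 4h, where 17.2% and 16.8% of all tested genes did. Skp2, the ubiquitin ligase subunit that recognises p27, rose from 22.6 ± 2.71 CPM at 0h to 41.8 ± 5.42 CPM at 4h (log2 fold change 0.91, SE 0.10, adjusted p = 3.8e-09 in edgeR). It fell to 26.7 ± 2.58 CPM in rev (-0.66, SE 0.10, adjusted p = 7.5e-06), and Cks2, which encodes a cofactor of SKP2, fell by 0.39. Cul1, the scaffold of the SKP2 and FBXW7 ligases, and Fbxw7, which recognises cyclin E, rose by 0.52 and 0.24 on the log2 scale. Fbxo31, which recognises cyclin D1, and Usp28, a deubiquitinase that opposes FBXW7, fell by 0.63 and 0.42.

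Of 17 tested p53 target genes, a class to which Cdkn1a also belongs, 5 rose and 3 fell at 4h, against 17.2% and 16.8% of all tested genes. Between 4h and rev 3 rose and 2 fell, against 7.93% and 8.43%. Pmaip1, which encodes the apoptosis protein NOXA, rose at 4h by 2.35 on the log2 scale (SE 0.16, adjusted p = 9.2e-14 in edgeR) and fell to rev by 1.44. Sesn2, a stress-induced inhibitor of mTORC1 signalling, rose by 0.41 at 4h. Eda2r, a receptor of the TNF receptor family, rose by 0.37 at 4h and fell by 0.34 to rev. Ei24 and Zmat3 fell by 0.50 and 0.33 at 4h. From 4h to rev Bbc3, which encodes PUMA, rose by 0.75, Phlda3 by 0.35 and Ei24 by 0.31.

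Markers of cell state moved over the same comparisons. Of the 10 embryonic stem cell markers, 6 rose and 3 fell at 4h against 0h, where 17.2% of all tested genes were higher and 16.8% lower. From 4h to rev 3 of the markers rose and 6 fell, where 7.93% and 8.43% of all tested genes did. The pluripotency factor gene Nanog was at 394 ± 92.9 CPM at 0h, 250.0 ± 78.5 CPM at 4h and 392 ± 108 CPM in rev. Klf4 and Tfcp2l1, which encode factors of the naive state, fell by 0.35 and 0.31 on the log2 scale at 4h and rose by 0.51 and 0.33 to rev. Utf1 rose from 18.5 ± 10.5 to 72.2 ± 23.1 CPM at 4h (log2 fold change 2.01) and fell by 1.00 to rev. Tdgf1 and Zfp42 rose by 0.60 and 0.40 at 4h and fell by 0.56 and 0.44 to rev. Of the 5 tested trophoblast markers, 3 rose and 1 fell at 4h, with a list median of 0.98, and 1 rose and 1 fell to rev, against the same shares. Eomes rose from 3.85 ± 1.06 to 7.46 ± 2.00 CPM at 4h and fell to 5.10 ± 0.539 CPM in rev, whereas Tfap2c fell from 38.9 ± 7.22 to 23.8 ± 3.74 CPM and rose to 32.6 ± 4.14 CPM. The part of these changes in those of the 10 genes was not tested.

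**Figure D4:**
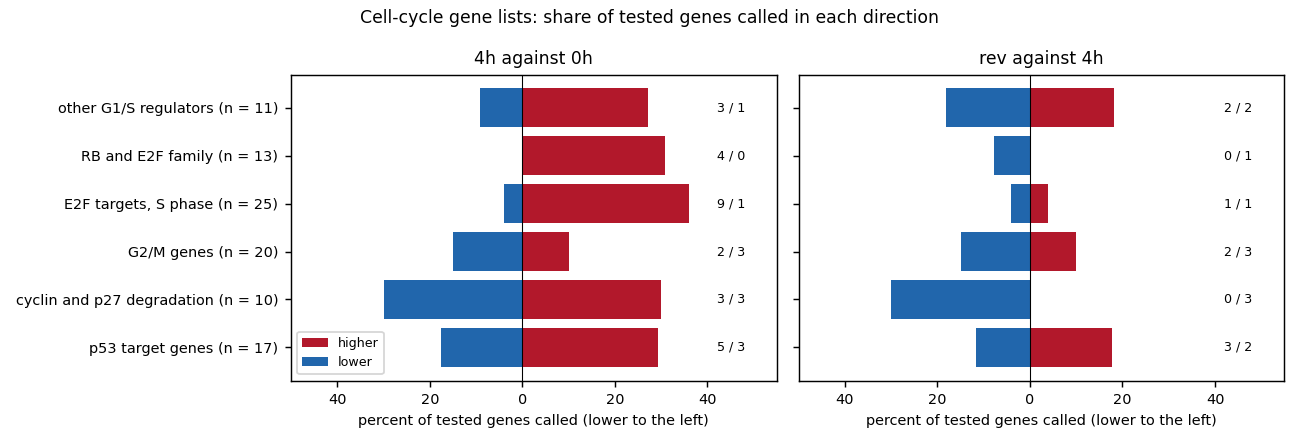
Percent of the tested genes of 6 cell-cycle lists called higher (red, to the right) or lower (blue, to the left) at 4h against 0h and at rev against 4h, with the counts higher / lower at the right edge. At 4h against 0h the E2F target list had 9 of 25 genes higher and 1 lower, where 17.2% and 16.8% of all tested genes were, and at rev against 4h the degradation list had 3 of 10 genes lower, where 8.43% of all tested genes were.

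For each D-type cyclin, the 3 genes with the most similar log2 CPM over the 16 libraries, among 8645 genes with a mean of at least 5 CPM, are given as a description. The libraries share their depth, groups and clones. For Ccnd2 these were Nr6a1 (Pearson r 0.937), Ptpn12 (0.935) and L3mbtl2 (0.932). For Ccnd1 they were Ppp2r5d (0.851), Nol9 (0.836) and Fam222b (0.833), and for Ccnd3 Fkbp6 (0.948), Dzip1 (0.934) and Lef1 (0.930).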

How the data were processed

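Total RNA, after removal of ribosomal RNA, gave 16 libraries in 4 groups. The authors deposited raw read counts per gene, per the file headers and the values, which were whole and differed in their totals. The submitters' processing notes name bcl2fastq 2.19.1, STAR 2.5.3a and build mm10, with no role given. The counting tool, annotation and strand setting are not given in the sources used here. Of 52636 identifiers, 52489 matched GENCODE M21 (GRCm38, the build called mm10), which gave symbols, positions and exon lengths, and 147 did not.

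The test was edgeR 4.0.16 in R 4.3.3 (filterByExpr over 4 groups, TMM factors of 0.463 to 1.47). It used a quasi-likelihood fit of group and clone on all 16 libraries, two-sided contrasts and Benjamini-Hochberg adjustment over 12215 genes at 0.05. It was run on simulated data without a clone effect and without differing shares of abundant models. That check therefore does not bear on either of these. A fit of group and clone together gave the differences between clones. CPM values and shares were computed from TMM-scaled library sizes. The log2 CPM for likeness, and for the ranges of how far rev returned toward 0h, had a prior count of 2. Intervals are at 95%.

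The 10 genes, the lists and the tests were chosen with earlier results of these data known. From each list, up to 3 genes per direction were named at 4h against 0h and rev against 4h, with the largest change among those called, at least 5 CPM on average and 1 sign over all same-numbered differences. Cdk2 and the levels of Spry4 and Dusp6 in rev against 0h were added after their values were seen. A gene that this rule named is not reported here. Total counts, 2172651 to 12680303 per library, set the precision together with the share that the abundant models took. The floor of 3 counts was highest, at 1.35 CPM, in rev clone 8 replicate 2, which had 4794652 counts. In 2h clone 4 replicate 2, with 2172651 counts, it was 1.31 CPM. Such floors cover counting error only.

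Replicate numbers were not taken as pairs, since same-numbered libraries correlated little in their residuals. This correlation, from 2 libraries per group and clone, cannot show that they were unpaired. Alternatives were RLE size factors, library size alone, removing the 8 most abundant models, their share as a covariate, other filters, no clone covariate, a replicate block, fits of 2 groups alone, a minimum log2 fold change of 1, leaving out each library, and DESeq2 1.42.0.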

Additional observations from a re-analysis of the deposited data

Results flagged for a closer look

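In 40 sets of 4 libraries (10 genes in 4 groups), 1 library lay far from the other 3. Cdkn2c at 2h was 3.07 CPM in clone 4 replicate 2, against 1.44 to 1.68 CPM in the other 3 libraries, and the gap was 0.848 of the group's range. The value rests on 7 counts in the library with the lowest total counts, and the part of depth in it was not tested. Chance flags about 1 in 20 such sets.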

How the results depend on the processing

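The calls of Ccnd2 from 0h to 4h, from 2h to 4h, from 4h to rev and from 0h to rev, of Cdk6 from 0h to 4h, and of the clone differences of Ccnd2, Ccnd3 and Cdkn1b held in every alternative run for them. Of the other calls, that of Cdkn1a at 2h was lost in 13 of 28 alternatives, that of Ccne2 at 4h in 11 and that of Cdkn1a at 4h in 8. Each of these numbers includes the alternative that required a log2 fold change of at least 1, which drops smaller changes by its rule. The cause of the other losses was not tested. Depth limits the precision of Cdkn2c (35 to 58 counts per group) and of Ccnd2 at 0h (19 counts). Ccnd2 from 0h to 2h failed the count filter with only those groups and has no value there.

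With library size alone, 0 genes were lower from 0h to 2h, and Ccne2 was no longer called higher there (adjusted p = 0.304 in edgeR). From 0h to 4h 2 were higher and 1 lower, and 1 was higher from 2h to 4h, 0 from 4h to rev and 1 from 0h to rev. The median of all genes then moved to -0.41 from 4h to rev and -0.32 from 0h to rev, and to 0.10 from 2h to 4h. The split of calls over all genes became 57 higher and 1671 lower from 4h to rev (969 and 1030 with TMM), 105 and 905 from 0h to rev (1518 and 1204), 204 and 134 from 0h to 2h (1390 and 1182), 554 and 327 from 0h to 4h (2098 and 2048) and 88 and 12 from 2h to 4h (464 and 430). With the 8 most abundant models removed and library size alone, an alternative chosen after seeing the data, it was 925 and 1896 from 0h to 2h (1390 and 1182 with TMM), 1365 and 2902 from 0h to 4h, and 923 and 2044 from 0h to rev.

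The share of abundant models as a covariate left 1 gene lower at 2h and 1 at 4h, both against 0h, where 1197 and 1810 of all 12215 genes were lower. No low-count filter, DESeq2 and the replicate block each left 1 gene lower from 0h to 2h, where 930 of 31361, 855 of 12215 and 1137 of 12215 genes were lower. Without the clone covariate 0 were lower at 2h, 4h or rev against 0h, where 462, 1323 and 576 of all 12215 genes were lower (1182, 2048 and 1204 with it). With a log2 fold change of at least 1 required, 1 was higher and 0 lower at 2h, 2 and 0 at 4h, 1 and 0 at rev, all against 0h, 1 was higher from 2h to 4h, and 0 were higher and 1 lower from 4h to rev. Of all 12215 genes, 179 were then higher and 166 lower at 2h, 305 and 424 at 4h and 186 and 143 at rev against 0h, 74 and 45 from 2h to 4h, and 188 and 140 from 4h to rev. With each library left out in turn, 1 to 2 genes were lower at 2h and 1 to 2 at 4h, both against 0h, where 743 to 1286 and 1646 to 2149 of all tested genes were lower.

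Directions turned for the changes below, which were uncalled with TMM except the 1 named first. With library size alone, Cdkn1a from 0h to rev became -0.0192. There, from 0h to rev, Ccne1 became -0.301, Ccnd1 -0.166, Cdk4 -0.241 and Ccnd3 -0.285. At from 4h to rev Cdkn2c became -0.341, Cdkn1b -0.156 and Ccnd3 -0.409. Cdkn1a from 2h to 4h became 0.0858 and Cdk4 between clones -0.199. With the 8 models removed and library size alone, Ccne1 (-0.0139), Ccnd1 (-0.0190) and Ccnd3 (-0.0686) turned from 0h to 2h, Ccnd3 from 0h to 4h (-0.0830) and from 2h to 4h (-0.0144), and Ccne1 (-0.0741), Cdk4 (-0.0181) and Ccnd3 (-0.0626) from 0h to rev. The share covariate turned Cdkn1a from 2h to 4h (0.0396) and Ccnd3 from 4h to rev (-0.0305). Ccnd3 also turned from 2h to 4h with no filter (-0.0229) and with 2 groups (-0.00350), and from 0h to 2h without the clone covariate (-0.00976).

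Leaving out single libraries gave ranges that crossed 0 for uncalled values. Ccnd3 ranged from -0.0234 to 0.0414 at 2h, -0.0170 to 0.0470 at 4h and -0.00557 to 0.0703 at rev (all against 0h), -0.0253 to 0.0308 from 2h to 4h and -0.0132 to 0.0545 from 4h to rev. Ccne1 ranged from -0.00984 to 0.103 at 2h and -0.0503 to 0.0844 at rev, and Ccnd1 from -0.0355 to 0.123 at 2h, against 0h. At from 2h to 4h Cdk4 ranged from -0.0571 to 0.0949 and Cdkn1a from -0.0867 to 0.0278. Cdkn2c ranged from -0.115 to 0.305 from 4h to rev, and between clones Cdkn1a ranged from -0.0564 to 0.0339 and Cdk6 from -0.0278 to 0.0389.

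Same-numbered libraries correlated in their residuals with r from -0.220 to 0.129 (mean 0.00467), so the numbers were not taken as pairs. The replicate block left the other calls of the 10 genes between groups as they were, and the clone differences were not run under it.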
